A study of Mus musculus with 34 samples.

Results

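The genes described here are those of the circadian clock and its direct outputs: Clock, Per1, Per2, Per3, Cry1, Cry2, Nr1d1, Nr1d2, Dbp and Tef. They were taken by name, as every probe set that the platform annotation gives to 1 of these symbols, which yielded 18 probe sets for 10 of 12394 genes with such a probe set. The study measured RNA on 34 Affymetrix arrays of mice with altered muscle glycogen synthase, the enzyme that builds glycogen in muscle and that the gene Gys1 encodes. Knockout mice of the muscle enzyme (MGSKO) and wild-type mice (WT), both 3 months old, gave anterior tibialis (4 and 4 arrays), medial gastrocnemius (3 and 5) and liver (4 and 4). Mice of the GSL30 line, labelled as overexpressing muscle glycogen synthase, and WT mice, both 8 months old, gave gastrocnemius (5 and 5). The strain C57BL6/129SV is named for the tibialis arrays alone, and the labels give neither the promoter of the transgene, nor the number of animals behind an array, nor the hour at which tissue was taken. P-values therefore measure the spread between these arrays, which may be technical.

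In the mammalian clock, CLOCK and BMAL1 (gene Arntl) bind E-box sequences and switch on the Per and Cry genes, whose proteins return to the nucleus and repress the pair. The same pair drives Nr1d1 and Nr1d2, which encode the REV-ERB repressors of Arntl, and the PAR bZIP factors DBP and TEF, which act on D-box sequences of output genes. Muscle and liver each run this loop, so the transcripts of Per, Nr1d1, Nr1d2 and Dbp rise and fall within a day in both tissues, and the level on an array depends on the hour of collection. Because no hour is given, a difference in phase between tissues cannot be computed here, and genotype, tissue, age and hour cannot be told apart where the hour may have differed between groups.

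The regulatory sequences of this loop can be read in the upstream bases of 3 members, shown because they hold the E-box or the D-box in its full form. The stretches are those of RefSeq promoters in build GRCm38.p6, ending at the base before the gene, 5′ to 3′ on the gene's strand, with E-box letters CACGTG or D-box letters TTATGTAA in capitals.
Tef, chr15:81802423-81802672, plus strand: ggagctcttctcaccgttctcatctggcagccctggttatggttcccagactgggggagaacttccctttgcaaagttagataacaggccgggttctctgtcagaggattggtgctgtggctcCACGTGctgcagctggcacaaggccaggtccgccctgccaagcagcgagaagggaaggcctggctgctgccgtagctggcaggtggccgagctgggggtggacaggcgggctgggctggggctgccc
Cry1, chr10:85185055-85185304, minus strand: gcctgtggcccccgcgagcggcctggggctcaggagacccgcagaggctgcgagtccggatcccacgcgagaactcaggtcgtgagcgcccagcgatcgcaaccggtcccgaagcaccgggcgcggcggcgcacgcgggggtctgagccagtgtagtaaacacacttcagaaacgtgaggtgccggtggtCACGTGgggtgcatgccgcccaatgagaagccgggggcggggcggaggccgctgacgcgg
Per3, chr4:151044708-151044915, minus strand: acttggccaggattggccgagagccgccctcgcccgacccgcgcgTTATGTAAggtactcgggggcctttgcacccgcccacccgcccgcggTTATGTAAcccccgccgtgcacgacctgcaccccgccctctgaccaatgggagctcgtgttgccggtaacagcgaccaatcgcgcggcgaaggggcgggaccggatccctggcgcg
The E-box of this Tef promoter starts 127 bases before the transcription start and that of Cry1 starts 60 bases before it, while the D-boxes of Per3 start 205 and 158 bases before the start of the matching RefSeq transcript (the last 42 bases of its 250 lie within the gene and are not shown). RefSeq promoters were found for 9 of the 10 members, 13 in all, and Per2 was not matched. Over the windows of 300 bases (250 before and 50 after each start), searched on both strands, CACGTG occurred in 4 of the 13 member promoters (Cry1, 1 of Per1 and 2 of Tef) and in 7.15% of all 32851 promoters. TTATGTAA occurred in 1 of the 13 and in 0.938% of all. The cyclic AMP response element TGACGTCA (1.79% of all) and the ROR element (0.384%) occurred in 0 of the 13. The ROR element was searched as a pattern: A or T, A, A or T, any base, T, A or G, then GGTCA. No match overlapped another in the member promoters, and a match describes the sequence only.

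In RefSeq annotation of GRCm38.p6 the genes lie apart, on 9 chromosomes, with Per1 and Nr1d1 sharing 1: Clock at chr5:76209868-76305603, Per1 at chr11:69095108-69109965, Per2 at chr1:91415977-91459351, Per3 at chr4:150997018-151044707, Cry1 at chr10:85131700-85185054, Cry2 at chr2:92403646-92434085, Nr1d1 at chr11:98767932-98775377, Nr1d2 at chr14:18204056-18239106, Dbp at chr7:45705100-45710203 and Tef at chr15:81802673-81826863. The probe sets read their transcripts, and probe positions within the genes were not used here.

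All arrays came on one scale, with a 2% trimmed mean of 1000.3 to 1000.5 intensity units, and arrays of a set correlated at 0.897 to 0.980. The brighter Gys1 probe set read 8184 to 9958 in WT tibialis and 34.2 to 72.5 in MGSKO tibialis, and 5840 to 7185 in 8-month WT against 7896 to 10404 in GSL30 gastrocnemius. All 8 skeletal muscle markers were lower in WT liver than in WT tibialis (8 of 8 passed the test), and all 11 measured hepatocyte markers were higher. The summed hepatocyte markers read 1243 to 1777 in WT tibialis, 42633 to 705560.2 in 3-month WT gastrocnemius, 38769 to 150899 in MGSKO gastrocnemius, 5057 to 25348 in 8-month WT, 1598 to 4589 in GSL30 and 568822 to 623189.6 in WT liver, so the gastrocnemius arrays hold liver transcripts in unequal amounts. No marker was at 0 in every array of a group, and 7 of 11 hepatocyte markers had a mean under 200 in tibialis and GSL30 gastrocnemius, 0 of 11 in 3-month gastrocnemius. WT gastrocnemius array 2 at 3 months stood apart, with skeletal muscle markers summing to 1428091 against 295451 to 417239 in the other 4. In whole tissue, fewer cells of a type and less RNA per cell cannot be told apart.

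Against their own WT group, 1 member probe set passed the test in the 4 mutant comparisons. The test was limma on log2(value + 50) with Benjamini-Hochberg adjustment over 13576 probe sets, all log2 differences below are on that scale, and a probe set is called under an adjusted p of 0.05. In MGSKO tibialis 0 of 13 tested member probe sets were called (3 at an unadjusted p under 0.05), where 1.4% of all tested probe sets were called (190, and from 63 without MGSKO array 2 to 300 without WT array 4 when 1 array was left out). Endothelial markers summed to 12809 to 15379 in MGSKO and 8851 to 11194 in WT tibialis, without overlap (5 of 5 unadjusted, 0 called). The summed slow muscle markers, 34685 to 42671 and 9984 to 17097, did not overlap either (1 of 5 called, higher). Of these 5 markers, however, 2 were higher and 3 lower in MGSKO, with a median log2 difference of -0.20. Their mean log2 values overlapped, at 10.37 to 11.56 in MGSKO and 10.23 to 10.83 in WT. The part of both lists in the tibialis values below was not tested. In MGSKO gastrocnemius 0 of 12 were called (2 unadjusted; background 0.147%), and in MGSKO liver 0 of 10 (1 unadjusted; background 0.00737%). In GSL30 gastrocnemius 1 of 12 was called, a probe set of Clock, lower (4 unadjusted; background 4.31%). The median log2 difference over tested members was 0.04 in tibialis (0.04 over all probe sets), 0.20 in 3-month gastrocnemius (0.05), -0.12 in liver (0.02) and 0.13 for GSL30 (0.03). Of the 18 probe sets, 5 were under the intensity filter (40th percentile, 204 to 256 by comparison) in every mutant comparison: both of Per2, 2 of Per3 and 1 of Tef.

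**Figure D1:**
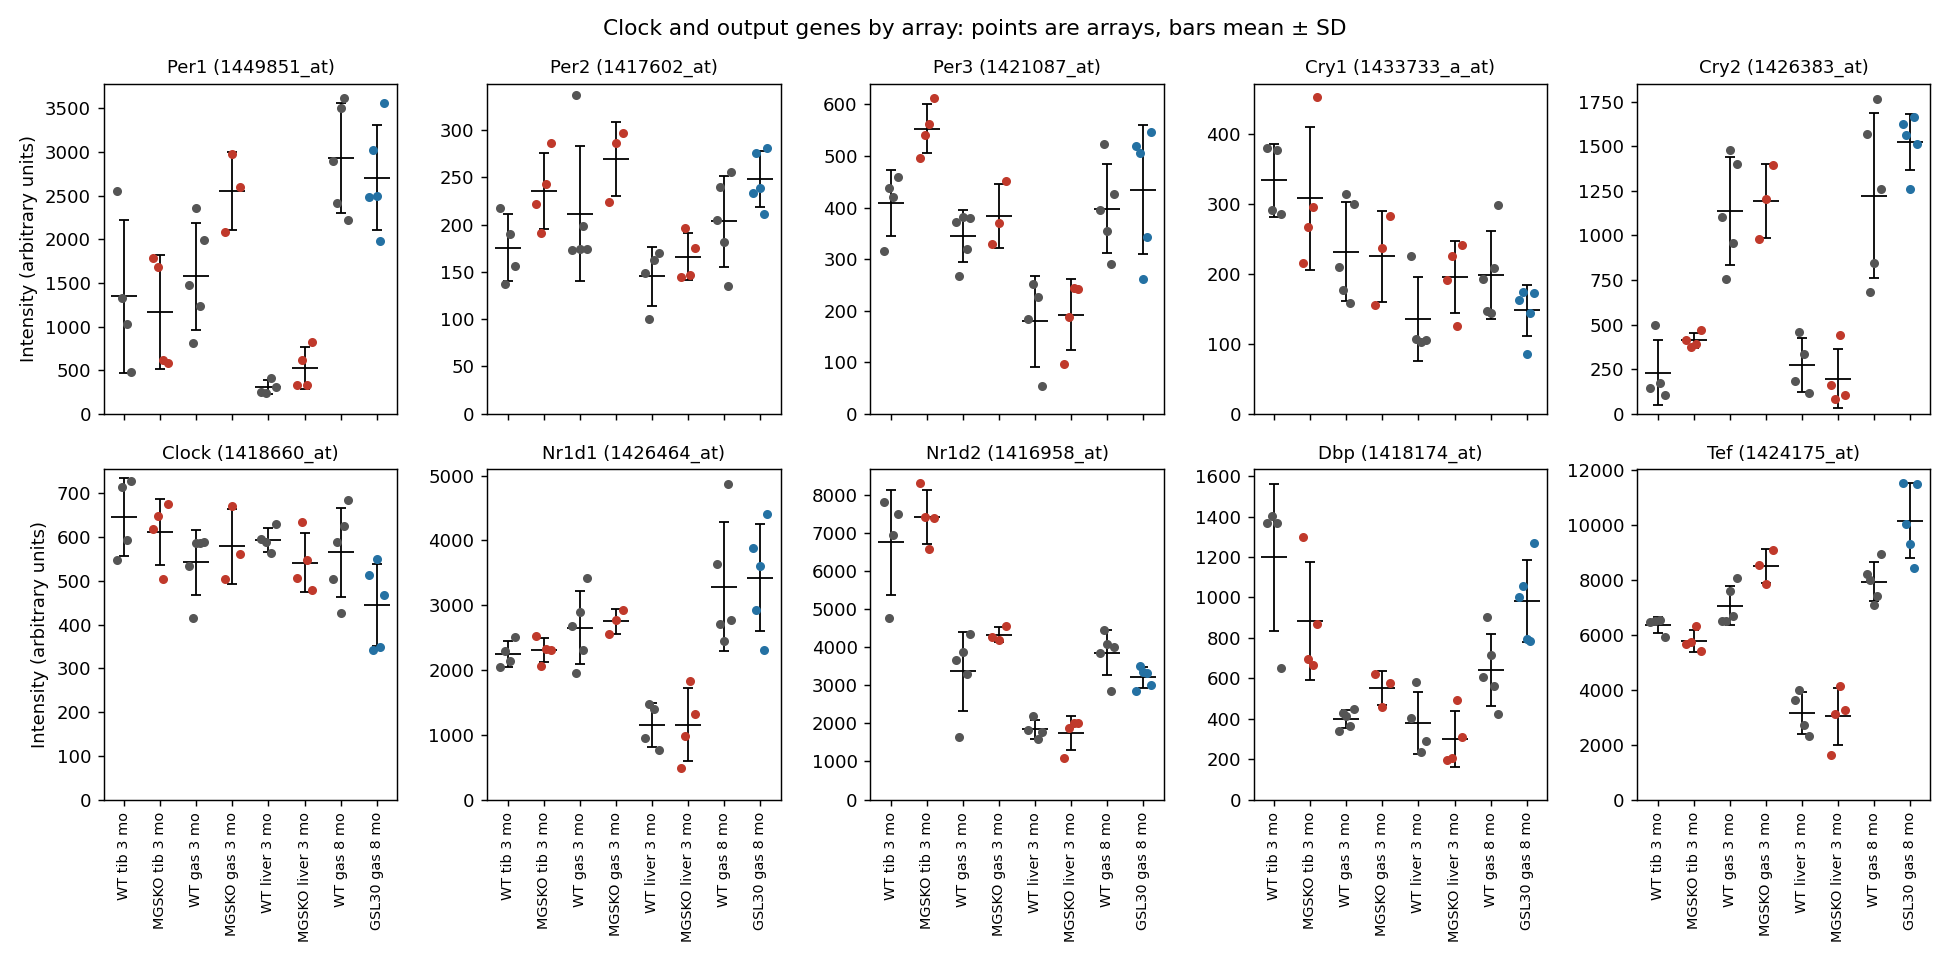
Intensity (vertical axis, arbitrary units, starting at 0) of the brightest probe set of each of the 10 genes on every array, in 8 groups; points are arrays, and bars give mean ± SD. The liver groups have the lowest means for Per1, Per2, Per3, Nr1d1, Nr1d2, Dbp and Tef, with ranges that overlap a muscle group for Per1, Per2 and Dbp. Cry2 is high in the 4 gastrocnemius groups, and the arrays of 1 group often lie far apart.

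Clock, the DNA-binding activator, gave the 1 call, on 1 of its 2 probe sets. Its brighter probe set, 1418660_at, read 503, 589, 426, 625 and 684 in 8-month WT gastrocnemius and 514, 343, 549.7, 349.7 and 467 in GSL30. These ranges overlapped, and the log2 difference was -0.32 (SE 0.16, 95% interval -0.67 to 0.03, adjusted p = 0.277). The second Clock probe set, 1418659_at, has nearly the same mean over the 34 arrays (560.73 against 560.98), so the order of these 2 is arbitrary. It read 436, 508, 510.3, 487 and 457 in WT and 308, 286, 409, 309 and 288 in GSL30. All 5 GSL30 arrays lay below all 5 WT arrays on this probe set (7.38% of all tested probe sets did not overlap there). It fell by 0.53 (SE 0.12, adjusted p = 0.0294, limma), from 479.6 ± 32.3 in WT to 320.0 ± 51.1 in GSL30 (SD, n = 5 each). The call was lost in 7 of 10 fits that each left out 1 array (all but those without WT array 5, GSL30 array 3 or GSL30 array 4), with log2 differences from -0.61 to -0.49 and adjusted p from 0.0248 to 0.0784. It was also lost, at nearly the same difference, without a filter on dim probe sets, at -0.53 (adjusted p = 0.0645), with all 34 arrays in 1 fit, at -0.53 (adjusted p = 0.15), and without WT arrays 2 and 5, whose hepatocyte signal was highest, at -0.52 (adjusted p = 0.0977). With a hepatocyte score as covariate the difference was -0.53 (adjusted p = 0.254), in a fit that called 0 of all 13576 probe sets. Slow muscle markers (5 of 5 called) and endothelial markers (3 of 5 called) were lower in GSL30 too: the slow markers summed to 34988 to 45818 in WT and 15140.1 to 29553 in GSL30, and the endothelial markers to 11824 to 13926 and 7381 to 8908. Hepatocyte markers were lower as well (3 of 5 tested called), and the part of the slow muscle and endothelial markers in the Clock difference was not tested.

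On 1418660_at group means ran from 445 in GSL30 to 646 in WT tibialis, and every neighbouring pair in the order of the 8 groups overlapped. MGSKO minus WT was -0.07 (SE 0.13, adjusted p = 0.837) in tibialis, 0.09 (SE 0.16, adjusted p = 0.835) in gastrocnemius and -0.13 (SE 0.11, adjusted p = 0.798) in liver. On 1418659_at WT gastrocnemius array 2, the array set apart above, read 162 beside 547 to 766 in the other 4. The partners of CLOCK were not called in any mutant comparison: Arntl read 1073 ± 262 (SD, n = 4) in WT and 916 ± 132 (SD, n = 4) in MGSKO tibialis, with log2 differences of -0.20 (adjusted p = 0.619) there, -0.08 (adjusted p = 0.865) in gastrocnemius, 0.20 (adjusted p = 0.869) in liver and 0.27 (adjusted p = 0.339) in GSL30. Npas2, a relative of Clock, stayed under the filter in all 4, with group means of 88.6 to 158.

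Per1 and Per3, 2 of the 3 period genes, were measurable, and Per2 was close to the floor. Per1, the period gene that also responds acutely to glucocorticoids and cyclic AMP, read 2549.7, 1329.9, 1027 and 479 in WT tibialis and 1788, 1684, 615 and 586 in MGSKO tibialis. Each of these groups held arrays more than 2-fold apart, the ranges overlapped, and the log2 difference was -0.15 (SE 0.51, adjusted p = 0.917). In 3-month gastrocnemius Per1 read 1474, 816, 2359.6, 1233 and 1996 in WT and 2083, 2973 and 2598 in MGSKO, a log2 difference of 0.75 (SE 0.31, adjusted p = 0.411); unadjusted p was 0.0386 and 2 of 3 MGSKO arrays lay above every WT array. The Per1 difference was 0.33 (adjusted p = 0.651) with the hepatocyte score as covariate and 0.35 (adjusted p = 0.474) without the arrays of high hepatocyte signal. In liver it read 249, 243, 414 and 309 in WT and 333, 613, 332 and 821 in MGSKO, a log2 difference of 0.63 (SE 0.27, adjusted p = 0.582), with 2 of 4 MGSKO arrays above every WT array. Without MGSKO liver array 4 it was 0.40 (adjusted p = 0.829). GSL30 and 8-month WT gastrocnemius overlapped throughout, at 1979.5 to 3558 and 2225 to 3615.

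Per3, a period gene with a lesser part in the core loop, read 315, 438, 421 and 459.9 in WT tibialis and 496, 541, 563 and 612 in MGSKO tibialis. All 4 MGSKO arrays lay above all 4 WT arrays, in a comparison in which 10.1% of all tested probe sets did not overlap, and the log2 difference of 0.40 (SE 0.13, adjusted p = 0.192) missed the threshold. In gastrocnemius the difference was 0.14 (SE 0.16, adjusted p = 0.728) for MGSKO and 0.09 (SE 0.20, adjusted p = 0.821) for GSL30, both with overlapping groups. The liver arrays read 53.8 to 252 in WT and 96.6 to 243 in MGSKO and were too dim to test. The other Per3 probe sets had group means of 58.8 to 151 and 131 to 247. Per2, a main repressor of the loop, read 138 to 218 in WT and 191 to 286 in MGSKO tibialis on its brighter probe set, and all of its neighbouring groups overlapped.

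The cryptochromes, the repressors that bind CLOCK and BMAL1 directly, had 0 calls by genotype. Cry2 read 144, 499.6, 169.8 and 106 in WT tibialis and 414, 374, 391 and 467 in MGSKO tibialis. WT array 2 was high in a group that was otherwise at 106 to 169.8, and MGSKO minus WT was 0.90 (SE 0.33, 95% interval 0.16 to 1.65, adjusted p = 0.246). Leaving out that array gave 1.29 (adjusted p = 0.00809), the only one of 8 fits without 1 array in which Cry2 was called, and a pseudocount of 200 gave 0.59 (adjusted p = 0.241). In gastrocnemius Cry2 read 1105, 754, 1481, 958 and 1399 in WT and 982, 1205 and 1397 in MGSKO at 3 months, a log2 difference of 0.09 (SE 0.23, adjusted p = 0.888). At 8 months it read 1567, 680.1, 843, 1765 and 1261 in WT and 1624, 1562, 1260.5, 1665 and 1512 in GSL30, a difference of 0.38 (SE 0.23, adjusted p = 0.35), with the WT arrays spread over more than 2-fold. Cry1 was near the filter, at 286 to 381 in WT and 216 to 454 in MGSKO tibialis, a difference of -0.13 (SE 0.19, adjusted p = 0.788), and was not tested in the other 3 mutant comparisons.

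The REV-ERB genes Nr1d1 and Nr1d2, repressors of Arntl that bind heme, were well above the filter in every group and had 0 calls by genotype. Nr1d1 read 2053, 2299.8, 2138 and 2504 in WT tibialis and 2523, 2067, 2331 and 2311 in MGSKO tibialis, a log2 difference of 0.04 (SE 0.11, 95% interval -0.21 to 0.29, adjusted p = 0.904). The differences were 0.08 (SE 0.18, adjusted p = 0.886) in MGSKO gastrocnemius, -0.08 (SE 0.35, adjusted p = 0.963) in MGSKO liver and 0.07 (SE 0.21, adjusted p = 0.875) in GSL30, and all groups overlapped. In liver the arrays of a group lay far apart, at 947, 1475, 1389.5 and 769.5 in WT and 491, 985, 1826 and 1325 in MGSKO.

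Nr1d2 read 7815, 4764, 6954 and 7502 in WT tibialis and 8310.2, 7434, 6576 and 7390.5 in MGSKO tibialis on its brighter probe set, a log2 difference of 0.16 (SE 0.17, adjusted p = 0.695). In 3-month gastrocnemius it read 3659, 1649, 3884, 3306 and 4359 in WT and 4259, 4191 and 4548 in MGSKO, a difference of 0.43 (SE 0.28, adjusted p = 0.557). WT array 2 was the lowest of these, and the 3 MGSKO arrays lay close together. GSL30 arrays read 2857 to 3497 and 8-month WT arrays 2861 to 4447, a difference of -0.25 (SE 0.13, adjusted p = 0.299). The dimmer Nr1d2 probe set, 1416959_at, did not follow the brighter: in WT tibialis it read 338, 357, 144 and 1038, highest on array 4, while the brighter probe set was highest on array 1.

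Dbp and Tef, the output factors of the PAR bZIP family, gave unadjusted differences of both signs. Dbp (probe set 1418174_at) read 609, 902, 713, 559.6 and 425 in 8-month WT gastrocnemius and 1001, 1055, 792, 786 and 1271 in GSL30. Of the 5 GSL30 arrays, 3 lay above every WT array, and the log2 difference was 0.59 (SE 0.19, 95% interval 0.18 to 1.01, adjusted p = 0.0955) with an unadjusted p of 0.00867. Its second probe set (1438211_s_at) differed by 0.41 (SE 0.18, adjusted p = 0.208). Tef (1424175_at) read 8220.3, 8005, 7097, 7419.7 and 8937 in WT and 11525, 10017, 9308, 8423 and 11488 in GSL30, a difference of 0.35 (SE 0.12, 95% interval 0.08 to 0.62, adjusted p = 0.128). For Tef 4 of 5 GSL30 arrays lay above every WT array, so both factors were higher in most GSL30 arrays without passing the adjusted threshold. With the hepatocyte score as covariate the differences were 0.98 (adjusted p = 0.21) and 0.87 (adjusted p = 0.21) on the Dbp probe sets and 0.50 (adjusted p = 0.289) for Tef. Without WT arrays 2 and 5 they were 0.59 (adjusted p = 0.118), 0.49 (adjusted p = 0.132) and 0.41 (adjusted p = 0.173). Endothelial and slow muscle markers, lower in GSL30 as given above, moved with this comparison, and their part was not tested.

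The Dbp difference between MGSKO and WT had opposite signs in the 2 muscles, with no call in either. In 3-month gastrocnemius it read 340.4, 429, 415, 362 and 446 in WT and 619, 458 and 576 in MGSKO. All 3 MGSKO arrays lay above all 5 WT arrays, as they did on the second probe set (9.98% of all tested probe sets did not overlap there), and the log2 difference was 0.42 (SE 0.15, adjusted p = 0.352) with an unadjusted p of 0.0188. All 5 slow muscle markers had an unadjusted p under 0.05 there, higher in MGSKO (1 called), and endothelial markers summed to 11868 to 13134 in MGSKO and 7612 to 9322 in WT (3 of 5 unadjusted, 0 called), without overlap. The part of these 2 lists was not tested. With the hepatocyte score as covariate Dbp was at 0.39 (adjusted p = 0.472), and without the arrays of high hepatocyte signal (WT 1, 2 and 4 and MGSKO 1) at 0.23 (adjusted p = 0.624). In tibialis Dbp read 1370.3, 1404, 1368 and 653 in WT and 1299.9, 697, 664 and 870.2 in MGSKO. WT arrays 1, 2 and 3 lay above every MGSKO array while WT array 4 lay below all of them, and the difference was -0.41 (SE 0.28, adjusted p = 0.525); on the second probe set it was -0.82 (SE 0.25, adjusted p = 0.162) with an unadjusted p of 0.00798. The difference between the MGSKO effects, gastrocnemius minus tibialis, was 0.83 (SE 0.33, adjusted p = 0.454) and 1.69 (SE 0.62, adjusted p = 0.436) on the Dbp probe sets and 0.40 (SE 0.15, adjusted p = 0.443) for Tef, with unadjusted p of 0.0254, 0.0147 and 0.0177, and none was called. Without the arrays of high hepatocyte signal the Tef value was 0.25 (adjusted p = 0.868). Tef read 6489 to 8049 in WT and 7847 to 9088 in MGSKO gastrocnemius and 5906 to 6538 and 5403 to 6337 in tibialis. In liver Dbp read 403, 580.5, 233 and 289.9 in WT and 194, 207, 491 and 308 in MGSKO, a difference of -0.29 (SE 0.30, adjusted p = 0.826), and Tef differed by -0.10 (SE 0.27, adjusted p = 0.944).

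The second measurable Tef probe set, 1450184_s_at, swung by far more than the first. It read 61.4, 201, 70.1 and 1182 in WT tibialis, 40.9, 1148 and 1218 in MGSKO gastrocnemius and 1712, 1308, 500.0, 1179.5 and 46.9 in 8-month WT gastrocnemius. On the same arrays 1424175_at stayed within 5906 to 6538, 7847 to 9088 and 7097 to 8937. Its mutant differences ran from -1.37 in MGSKO gastrocnemius to 1.22 in GSL30, and none was called.

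**Figure D2:**
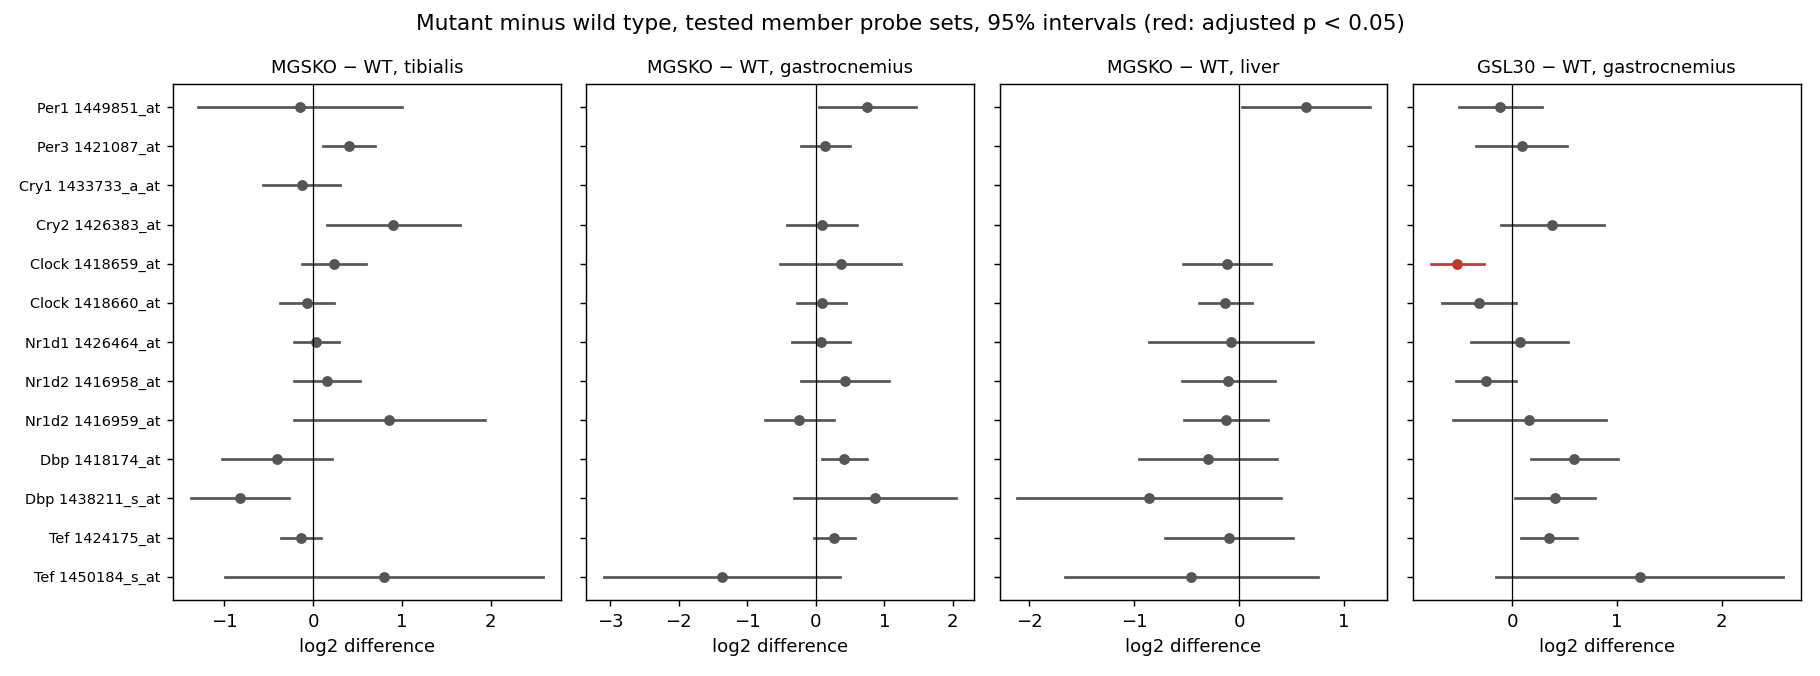
Log2 difference, mutant minus WT, with its 95% interval (horizontal axis, log2(value + 50) scale, a separate range in each panel) for each member probe set tested in 4 comparisons; the red interval is the 1 call. Clock 1418659_at in GSL30 is the only probe set with an adjusted p under 0.05, and the Dbp and Tef 1424175_at points lie right of 0 in both gastrocnemius panels.

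The differences between effects gave 0 member calls. The MGSKO effect in gastrocnemius minus that in tibialis had 0 of 13 called (3 unadjusted, limma; background 0.0147%). For liver minus tibialis the count was 0 of 12 (1 unadjusted; background 0.744%), that 1 being Cry2 at -1.36 (SE 0.60, adjusted p = 0.367), or -0.86 (adjusted p = 0.344) with a pseudocount of 200. The GSL30 effect minus the MGSKO effect in gastrocnemius had 0 of 12 called (4 unadjusted; background 2.3%), with Clock 1418659_at at -0.89 (SE 0.39, adjusted p = 0.241), Per1 at -0.87 (SE 0.36, adjusted p = 0.218) and Nr1d2 at -0.68 (SE 0.30, adjusted p = 0.249). Without WT gastrocnemius array 2 at 3 months, Clock was at -0.55 (adjusted p = 0.135) and Nr1d2 at -0.44 (adjusted p = 0.235), and without the arrays of high hepatocyte signal Nr1d2 was at -0.24 (adjusted p = 0.79). The GSL30 and MGSKO effects come from mice of different ages.

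More members were called between tissues than between genotypes. In WT liver against WT tibialis 7 of 11 tested member probe sets were called, all lower in liver, in 6 genes, where 69.4% of all tested probe sets were called, so the count is near the background. All 7 calls had 1 direction: the median over the 11 was -1.03 against -0.18 over all, and of all calls 3834 were higher and 5583 lower in liver. Nr1d2 read 1831, 2192, 1594 and 1769.6 in liver beside 6759 in tibialis and fell by 1.83 (SE 0.17, adjusted p = 4.67e-06). Per1 fell by 1.78 (SE 0.40, adjusted p = 0.00233), from 1346 ± 876 to 304 ± 79.1 (SD, n = 4). Dbp fell by 1.56 on its brighter probe set (adjusted p = 0.000797), from 1199 ± 364 to 377 ± 153 (SD, n = 4). On the brightest probe set of each of these 3 genes all 4 liver arrays lay below all 4 tibialis arrays. Of the 11 tested probe sets 2 were higher in liver, not called and with overlapping groups (limma). These were the dimmer Nr1d2 probe set, 1416959_at, at 0.27 (SE 0.43, adjusted p = 0.590), and Tef 1450184_s_at, at 1.20 (SE 0.65, adjusted p = 0.121). Of all tested probe sets 64.0% did not overlap in this comparison.

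Per3 differed by -1.10 (adjusted p = 0.00781), Nr1d1 by -0.99 (adjusted p = 0.00118), Tef by -1.03 (adjusted p = 0.000324) and the second Dbp probe set by -2.03 (adjusted p = 0.000139), also without overlap. The Clock probe sets were not called, at -0.10 (SE 0.12, adjusted p = 0.471) and -0.01 (SE 0.16, adjusted p = 0.966), and Cry2 was under the filter in this comparison. Arntl was lower in liver, at -0.54 (adjusted p = 0.0424). Each of the 7 calls held in every alternative fit that tested the probe set, 17 for 6 of them and 16 for Per3. Over its 16 fits Per3 ranged from -1.38 to -0.71, with adjusted p up to 0.0221 (limma). Liver and tibialis differ in RNA amount (about 10 and 5 µg) and were run as separate sets of arrays, and tissue, set and RNA amount cannot be told apart.

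WT gastrocnemius against WT tibialis at 3 months gave 5 calls of 13 member probe sets, where 27% of all were called. Cry2 was higher in gastrocnemius, at 1139 ± 303 (SD, n = 5) against 230.0 ± 182 (SD, n = 4), a log2 difference of 2.23 (SE 0.34, adjusted p = 0.00163). All 5 gastrocnemius arrays lay above all 4 tibialis arrays for Cry2 (24.8% of all tested probe sets did not overlap). Dbp was lower, at 398 ± 45.2 (SD, n = 5) against 1199 ± 364 (SD, n = 4), a difference of -1.42 (SE 0.22, adjusted p = 0.00161), and its second probe set differed by -2.65 (SE 0.48, adjusted p = 0.00342). Nr1d2 was lower on its brighter probe set, at -1.04 (SE 0.27, adjusted p = 0.0182). Its dimmer probe set had the opposite sign, at 0.72 (SE 0.39, adjusted p = 0.191, limma), with overlapping groups. Nr1d1 was at 0.21 (SE 0.16, adjusted p = 0.367), Per1 at 0.35 (SE 0.43, adjusted p = 0.568) and Tef 1424175_at at 0.15 (SE 0.12, adjusted p = 0.376). The fifth call was the unsteady Tef probe set, 2.40 (SE 0.60, adjusted p = 0.0147). The calls thus split by direction, 2 higher and 3 lower. Gastrocnemius and tibialis were run as separate sets of arrays, and muscle and array set cannot be told apart.

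The hepatocyte markers, given above, differ between these muscle groups by the same comparison (11 of 11 called, higher in gastrocnemius), and slow muscle markers were higher too (4 of 5 called). Without the WT gastrocnemius arrays of high hepatocyte signal (1, 2 and 4), Cry2 was at 2.60 (adjusted p = 0.0143), Dbp at -1.32 (adjusted p = 0.0331) and its second probe set at -2.25 (adjusted p = 0.00631), all called, while Nr1d2 was at -0.68 (adjusted p = 0.0789) and the unsteady Tef probe set at 2.58 (adjusted p = 0.0921). With the hepatocyte score as a covariate 0 of 13 were called, in a fit in which the calls over all 13576 probe sets fell from 3669 to 179, so that 0 is near the background: Cry2 was at 3.48 (adjusted p = 0.0929), Dbp at -1.16 (adjusted p = 0.333), the second Dbp probe set at -0.36 (adjusted p = 0.888), and Nr1d2 changed sign to 0.55 (adjusted p = 0.625). Without WT gastrocnemius array 2, Nr1d2 was at -0.80 (adjusted p = 0.00873) and Cry2 at 2.37 (adjusted p = 0.00181). Without WT tibialis array 1 Nr1d2 was no longer called, at -0.96 (adjusted p = 0.0558). WT liver, at 117 to 457, was below every gastrocnemius array for Cry2.

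At 8 against 3 months, WT gastrocnemius gave 0 calls of 12 member probe sets (3 unadjusted, limma; background 6.19%). Per1 read 2899.9, 2410.5, 3511, 3615 and 2225 at 8 months beside 816 to 2359.6 at 3 months, a log2 difference of 0.94 (SE 0.26, adjusted p = 0.056). Dbp read 609, 902, 713, 559.6 and 425 at 8 months beside 340.4 to 446, a difference of 0.59 (SE 0.17, adjusted p = 0.0697). For both Per1 and Dbp 4 of 5 older arrays lay above every younger array. Hepatocyte markers were lower at 8 months (11 of 11 called), and with their score as a covariate, in a fit with 2 calls over all probe sets, Per1 changed sign to -0.39 (adjusted p = 0.636). Without the arrays of high hepatocyte signal Per1 was at 0.60 (adjusted p = 0.186). Leaving out WT 3-month array 3 or 5 gave 1.10 (adjusted p = 0.0277) and 1.04 (adjusted p = 0.0393) for Per1, and leaving out WT 8-month array 5 gave 0.72 (adjusted p = 0.0304) for Dbp. Endothelial (3 of 5), macrophage (3 of 5) and adipocyte (2 of 2) markers were called higher at 8 months, and their part in these values was not tested. Age and array set cannot be told apart.

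**Figure D3:**
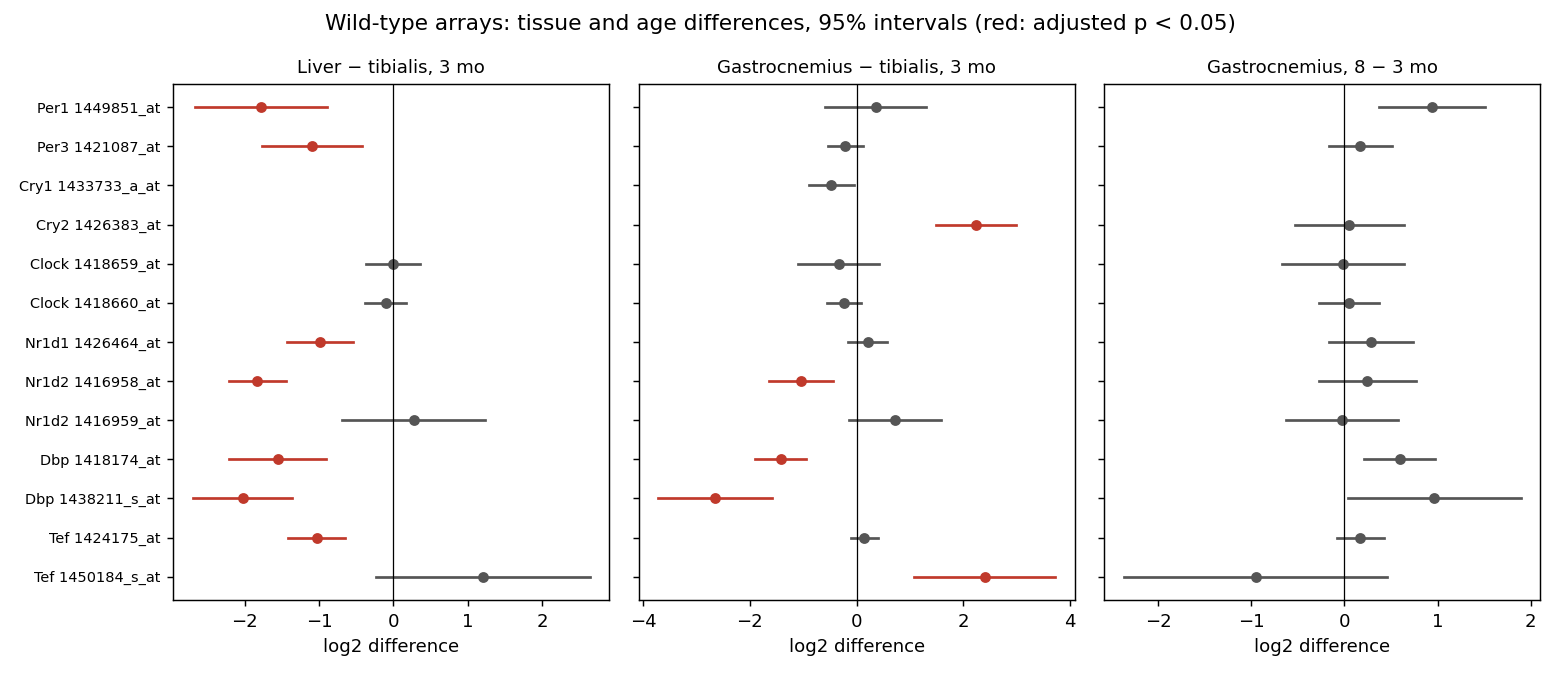
Log2 difference between WT groups with its 95% interval (horizontal axis, log2(value + 50) scale, a separate range in each panel) for each tested member probe set; red marks an adjusted p under 0.05. In liver minus tibialis the 7 red intervals all lie left of 0, in gastrocnemius minus tibialis 2 lie right and 3 left, and the age panel has none.

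Ordered by group mean, most neighbouring groups overlapped. In Nr1d2 both tibialis groups (4764 to 7815 and 6576 to 8310.2) lay above MGSKO gastrocnemius (4191 to 4548), and the lowest gastrocnemius group in the order, GSL30, lay above WT liver. In Nr1d1 and Tef the one step without overlap was between the lowest muscle group and the liver groups, and in Per3 likewise. In Cry2 it was between the gastrocnemius groups and the rest, and in Dbp between MGSKO gastrocnemius and WT gastrocnemius at 3 months. Over the 10 genes 63 of 70 neighbouring pairs overlapped, including all 7 for Per1, Per2, Cry1 and Clock.

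The arrays of a group lay further apart for the members than for most probe sets. The SD within groups, pooled over the 8 groups on the log2 scale, had a median of 0.390 over the 12 member probe sets above the filter on all arrays and of 0.264 over all 13576 such probe sets. An SD over 0.5 was found for 41.7% of these member probe sets and 8.39% of all such probe sets. With 1 probe set per gene, the 8 members above the filter had a median of 0.379, and 25.0% were over 0.5. Per1 (0.569) and Cry2 (0.544) varied most, at percentiles 94.4 and 93.5 of all probe sets, followed by Dbp (0.39), Nr1d1 (0.389), Per3 (0.37) and Nr1d2 (0.309). On these brightest probe sets Clock (0.204) and Tef (0.257) varied least. Probe sets of 1 gene disagreed here: Tef 1450184_s_at had 1.23, Dbp 1438211_s_at had 0.694 and Nr1d2 1416959_at had 0.576. Clock 1418659_at, equally bright and the probe set of the GSL30 call, had 0.368 (percentile 78.4, against 25.3 for 1418660_at).

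**Figure D4:**
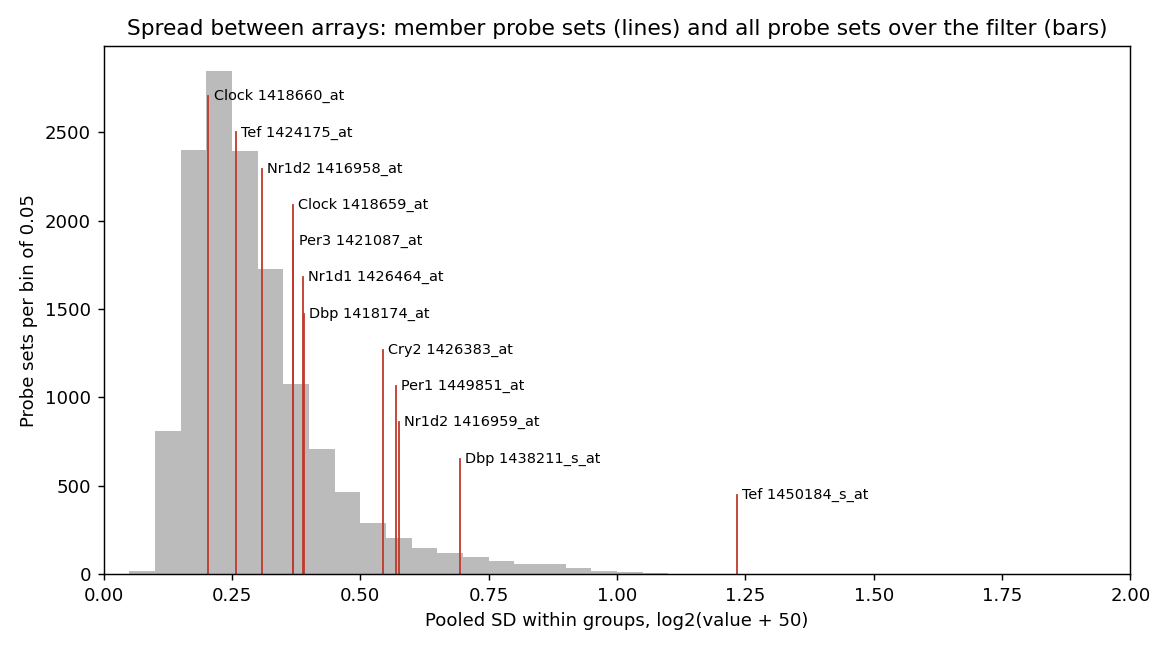
Number of probe sets per bin of 0.05 (grey bars, 13576 probe sets above the filter) by their SD within groups, pooled over 8 groups on the log2(value + 50) scale; red lines mark the 12 member probe sets above the filter. Clock 1418660_at lies at 0.204 among the steadier probe sets, but Clock 1418659_at lies at 0.368. Tef 1450184_s_at lies at 1.23, far to the right.

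To see whether members deviated together, each array's deviation from its group mean was compared between Dbp and 11 other clock genes over the 34 arrays. None passed Benjamini-Hochberg adjustment over the 11 pairs (two-sided, 100000 permutations of 1 gene within groups). Tef came closest, with r = 0.53 (permutation p = 0.0138, adjusted p = 0.152) and rho = 0.46 (permutation p = 0.0184, adjusted 0.203). Arntl, which peaks opposite to Dbp in the known loop, had r = -0.49 (permutation p = 0.0279, adjusted p = 0.154) and rho = -0.39 (permutation p = 0.0707, adjusted 0.319). Without the 2 arrays farthest from the median of Dbp (WT tibialis array 4 and MGSKO liver array 3), r was 0.46 for Tef and -0.33 for Arntl.

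Within the sets, Tef against Dbp gave r = 0.79 in liver (exact permutation p = 0.0417, n = 8) and 0.66 in 3-month gastrocnemius (exact permutation p = 0.108, n = 8). It gave 0.19 in tibialis and 0.20 in 8-month gastrocnemius. Arntl gave -0.80 in tibialis (exact permutation p = 0.0556, n = 8) and -0.60 in liver, but -0.08 and -0.10 in the gastrocnemius sets. So r with Arntl was farther from 0 in tibialis and liver, and r with Tef in liver and 3-month gastrocnemius, and the differences between sets were not tested. For the other members r with Dbp was 0.34 for Per3, 0.33 for Nr1d1, 0.31 for Cry2, 0.25 for Per1, 0.22 for Nr1d2, -0.20 for Clock, -0.12 for Cry1 and -0.06 for Per2, and -0.08 for Npas2, with adjusted permutation p of 0.379 to 0.739. Per1 gave 0.66 in tibialis and -0.40 in liver, so the sets disagreed in sign.

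**Figure D5:**
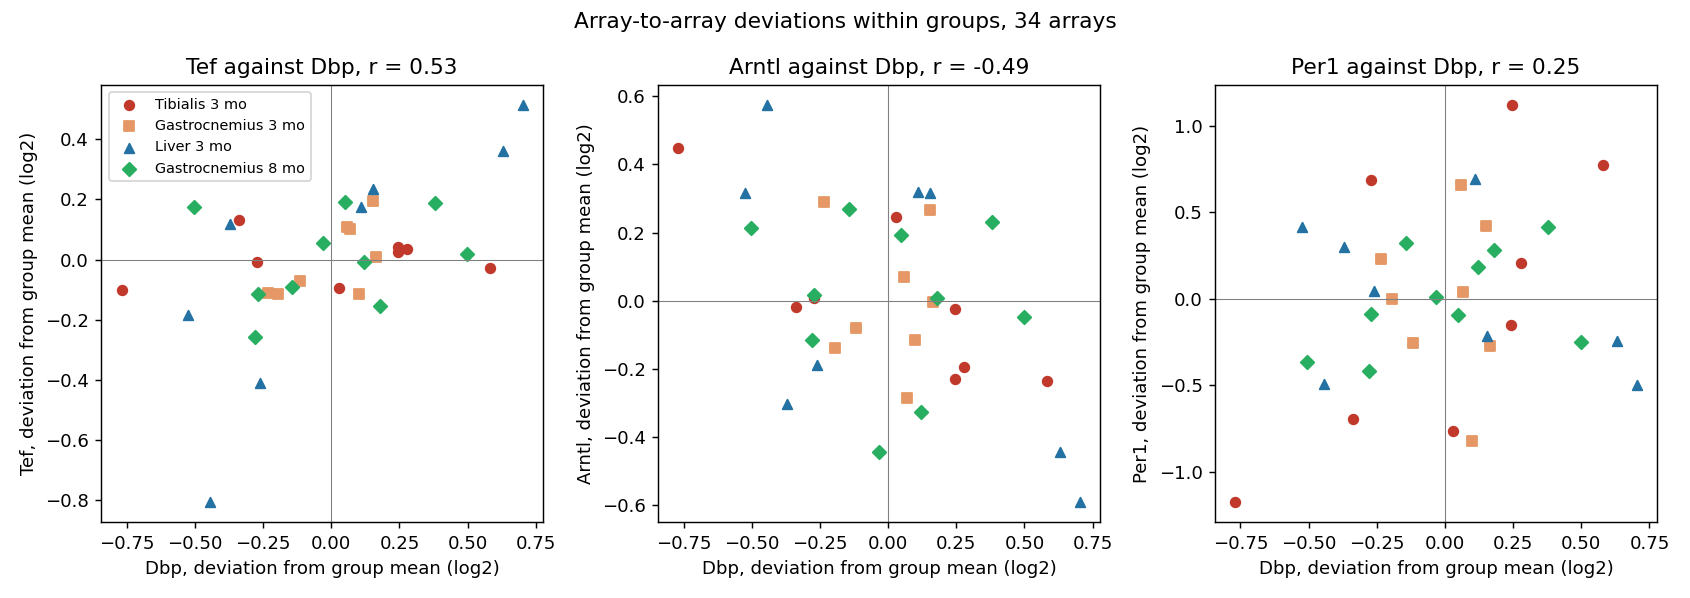
Deviation of Tef, Arntl and Per1 (vertical axes) from their group mean against that of Dbp (horizontal axis), log2(value + 50) scale, 1 point per array, 34 arrays in 4 tissue sets. The liver points run upward for Tef and downward for Arntl, and the MGSKO liver array at the far right is 1 of the 2 farthest from the median.

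Genes whose deviations were most like those of Dbp were sought over the 16 tibialis and liver arrays, giving the correlation over those arrays and, in brackets, over all 34. They were Hyal2 at 0.90 (0.42), Apod at 0.84 (0.36), Dtnbp1 at 0.84 (0.48), Clpp at 0.83 (0.30), Naxd at 0.82 (0.36) and G6pc3 at 0.82 (0.45). For Clock they were Fabp1 at 0.85 (-0.04), Slc25a15 at 0.83 (0.06), Foxp1 at 0.83 (0.17), Serhl at 0.80 (0.42), Kif1c at 0.80 (0.31) and Wdr13 at 0.79 (0.47). Over the 34 arrays, which include those 16, every one of these 12 values was lower, the highest being 0.48. Some fall is built in, because the genes were picked as the highest of many over the 16. For that reason the values carry no p. Ranked over all 34 arrays instead, the 6 genes most like Dbp were Usp2 at 0.72, Fzd9 at 0.66, Slc35b2 at 0.64, Aprt at 0.61, Hes1 at 0.60 and Tspan17 at 0.60, and Tef was at rank 38 and Arntl at rank 8305 of 8323 genes. None of the 12 genes of the first ranking is a member, and Usp2, a deubiquitinase that leads the second, is in the list of kinases and ligases described next.

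The rest of the clock machinery gave no call between genotypes. Of all tested probe sets 1.4% were called in MGSKO tibialis, 0.147% in MGSKO gastrocnemius, 0.00737% in MGSKO liver and 4.31% in GSL30. In lists this short, counts of 0 are near those shares. Of the core clock partners (10 of 12 listed genes on the array) 0 of 7 tested were called in MGSKO tibialis, 0 of 5 in gastrocnemius, 0 of 5 in liver and 0 of 6 in GSL30, and of the kinases and ubiquitin ligases that set the stability of PER and CRY proteins 0 of 8 in each (limma). At an unadjusted p under 0.05 were Rora, an activator of Arntl, at -0.48 (adjusted p = 0.123) and Usp2 at -0.56 (adjusted p = 0.317) in MGSKO tibialis, Usp7 at 0.45 (adjusted p = 0.421) in MGSKO gastrocnemius, Nfil3, the repressor that competes with DBP for D-boxes, at 0.39 (adjusted p = 0.561) in MGSKO liver, and Bhlhe40 at -0.49 (adjusted p = 0.0971) and Usp2 at 0.45 (adjusted p = 0.0715) in GSL30. Rhythmic output genes had 0 calls in all 4 comparisons (16 to 19 tested; 3, 5, 3 and 3 unadjusted). Of the glucocorticoid response genes, Sgk1, a kinase, was the 1 called of 13, lower in GSL30 at -1.07 (adjusted p = 0.0444), and the 13 had 0 calls in the MGSKO comparisons (4, 5 and 1 unadjusted). Immediate early genes had 0 calls in all 4 (0, 3, 1 and 4 unadjusted).

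Between WT tissues these lists had calls in both directions, to be read against the 69.4% of all probe sets called in liver against tibialis and the 27% in gastrocnemius against tibialis. In liver against tibialis 2 of 5 core partners were lower: Bhlhe40, an E-box repressor, at -1.60 (adjusted p = 2.45e-05) and Arntl at -0.54 (adjusted p = 0.0424). Of the kinases and ligases 4 were lower and 1 higher of 8, among them Csnk1e, a kinase of PER proteins, at -2.30 (adjusted p = 6.49e-07) and the deubiquitinase Usp2 at -2.83 (adjusted p = 2.09e-05). Rhythmic outputs split into 10 higher and 8 lower of 20, with Elovl3 at 5.41 (adjusted p = 7.15e-11) and Tcap at -7.06 (adjusted p = 9.07e-12), genes of liver and muscle respectively. In gastrocnemius against tibialis 2 of 5 core partners were higher, Rora at 0.92 (adjusted p = 0.00299) and Nfil3 at 1.06 (adjusted p = 0.0142), and Bhlhe40 was lower at -1.20 (adjusted p = 0.0068). Glucocorticoid response genes were mostly higher in gastrocnemius (10 higher and 1 lower of 13), with Cebpd at 2.79 (adjusted p = 0.000156), Ddit4 at 3.16 (adjusted p = 0.000211), Fkbp5 at 1.44 (adjusted p = 0.00043) and Tsc22d3 at 1.06 (adjusted p = 0.000684); the median over the 13 was 1.10, beside -0.05 over all probe sets. Per1, which such hormones raise, was not called there, as given above, and the part of hepatocyte and slow muscle markers in these list counts was not tested. At 8 against 3 months 0 of 5 core partners and 0 of 8 kinases and ligases were called (1 and 0 unadjusted, limma), with Arntl at -0.32 (adjusted p = 0.24). Rhythmic outputs had 1 higher and 4 lower called of 18 (12 unadjusted), where 6.19% of all tested probe sets were called. Immediate early genes had 2 higher of 10 (8 unadjusted), and glucocorticoid response genes 1 lower of 13 (2 unadjusted). The part of the cell type markers called in this comparison, given above, was not tested.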

How the data were processed

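Expression was measured on 34 Affymetrix arrays, and the table the authors deposited gives a linear intensity for each of 22690 probe sets. How probe signals were combined into these values was not given in the sources available. Negative intensities were replaced by 0, 50 was added and the log2 was formed, which understates changes of dim genes. Each comparison was fitted with limma 3.58.1 in R 4.3.3 on the arrays of its own groups, over the 13576 probe sets above the 40th percentile of mean log2 value, with Benjamini-Hochberg adjustment and a threshold of 0.05. The fits were tested on simulated data. Correlations used 100000 permutations within groups (numpy 2.4.6, scipy 1.17.1), with exact enumeration within tissue sets. Probe sets were named by the platform annotation, 20393 with 1 symbol, 691 with several and 1606 with none; an s suffix in a probe set name marks probes shared with other transcripts. All member probe sets are reported, the brightest over the 34 arrays stands for its gene, and up to 6 genes of smallest p are named from each list. The members and lists were chosen with earlier results of these data known, so no list is independent evidence. Alternatives covered the pseudocount, normalization, filter, pooling of arrays, array weights, hepatocyte signal and leaving out each array. Array numbers within a group follow the order of deposit and pair nothing; the number of arrays limits the precision.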

Additional observations from a re-analysis of the deposited data

Results flagged for a closer look

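In 6 of 70 groups of member values (10 genes, brightest probe set, groups of 4 or 5 arrays) 1 array lay far from the others by Dixon's criterion at 95%, which chance meets in about 1 of 20 groups. In WT tibialis, array 4 held the lowest Dbp, 652.9 against 1368.4 to 1404 in the other 3, and the lowest Tef, 5905.6 against 6459.5 to 6537.7. In the same group array 2 held the highest Cry2, 499.6 against 106.2 to 169.8. Per2 was highest, at 337.4, in WT gastrocnemius array 2 at 3 months, against 172.8 to 198.8 in the other 4; that array also stood apart in its muscle and hepatocyte markers. Cry1 reached 226.1 in WT liver array 1 against 102.9 to 106.7. Nr1d2 was lowest, at 1087.2, in MGSKO liver array 1 against 1889.4 to 2021.5.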

How the results depend on the processing

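The count of member probe sets called in WT liver against WT tibialis was 7, all lower in liver. Counted without regard to direction, it stayed at 6 to 9 in all alternatives. Counts over all probe sets moved too and are given in brackets. The GSL30 count of 1 (585) became 0 without the filter (259), with the 60th percentile filter (801, the probe set not being tested), with all 34 arrays in 1 fit (1093), with the hepatocyte covariate (0) and without the arrays of high hepatocyte signal (153), and was 0 to 1 without 1 array. The MGSKO tibialis count of 0 was 0 to 1 without 1 array (1, Cry2, without WT array 2). The gastrocnemius against tibialis count of 5 (3669) was 3 with the 60th percentile filter (3077 of 9051), 3 without the arrays of high hepatocyte signal (1691), 0 with the hepatocyte covariate (179), and 4 to 6 without 1 array. The count at 8 against 3 months, 0, was 1 with a pseudocount of 200 or a common median, 2 with quantile normalization or array weights, and 0 to 1 without 1 array. The hepatocyte covariate turned the sign for gastrocnemius against tibialis in Nr1d2 (0.55) and Cry1 (0.74), and for 8 against 3 months in the second Dbp probe set (-0.13) and Per1 (-0.39). The correlation of Dbp and Npas2, -0.08, was 0.088 over the 16 tibialis and liver arrays and 0.028 with the hepatocyte score removed. For these changes the cause was not tested. Of 693 alternative log2 differences 660 kept direction and side of the threshold, as did 42 of 44 correlations. No paired analysis was possible because the labels give no replicate numbers shared between groups. Dim probe sets of Per2, Per3, Cry1 and Npas2 are limited by signal near the filter.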
